A study of Mus musculus with 2 samples.

Results

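Open chromatin was described at the chemokine and chemokine receptor genes of mouse hematopoietic stem cells. Members were taken by symbol alone: protein-coding RefSeq genes whose symbol starts with Ccl, Cxcl, Ccr, Cxcr, Xcr, Xcl, Cx3cl or Cx3cr followed by a digit. The rule gave 58 of 21900 protein-coding genes, 39 ligand genes and 19 receptor genes. Chemokines with other kinds of symbol, such as Pf4 and Ppbp, are not members. Cells with the surface phenotype CD48-CD150+LSK came from the bone marrow of wild-type C57BL/6J mice and were transduced with a retrovirus before ATAC-seq, in which a transposase inserts adapters into open DNA. The H1C group received MSCV-H1C, which carries a linker histone (gene H1f2) that binds DNA at the entry and exit of the nucleosome. The control group received pMSCV, the same retroviral backbone without it, so both groups were transduced. About 1000 cells entered each library, per the labels, and with 1 library a group the differences below lack a replicate check and could not be tested. Library and treatment cannot be told apart. The sources used here do not give the ages of the mice, the number pooled or whether transduced cells were sorted again before the assay. The study's subject is the chromatin protein DEK and replication stress in Fanconi anemia, and this comparison asks how added H1C alters open chromatin in wild-type cells.

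Chemokines are small secreted proteins that guide cell migration. They bind G protein-coupled receptors of the Ccr, Cxcr, Xcr and Cx3cr families, which signal through Gi proteins to the cytoskeleton. In bone marrow, stromal Cxcl12 acts on Cxcr4 of stem and progenitor cells and holds them in the marrow, whereas Ccr9 and Ccr7 are known for bringing lymphoid progenitors to the thymus. Ligand genes lie in clusters that arose by local duplication. Mature myeloid, lymphoid and stromal cells make most inflammatory chemokines.

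Each library had its own list of peaks called by the authors, with 13156 peaks in H1C and 32005 in control. Peak height is given as the pileup, the number of reads or fragments stacked at the summit, which was solved from each peak's fold and p-value. Genome-wide background was 4.40 in H1C and 3.99 in control, so H1C was not the shallower library by that measure. A window was the gene body plus 50 kb on either side, and 57 members could be placed. Ccl21c could not, because it is listed on chromosome 4 from 59769 to 60899, before the first peak position (2999995) of any numbered chromosome or X. The windows merged into 30 loci, of which 11 held more than 1 gene and 38 members in all. Peaks were therefore counted once per locus, and members of a cluster are not independent. In total 50 peaks of H1C and 159 peaks of control lay in the windows, and 43 of the control peaks overlapped an H1C peak by at least 1 bp, which is called shared below.

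The promoters that carry the comparison are shown here as the 250 bases before the start site, on the gene's strand, from RefSeq (GRCm38.p6, the mm10 build). Cxcr4 (chr1:128592300-128592549, minus strand), Cxcl10 (chr5:92348890-92349139, minus) and Ccl3 (chr11:83649379-83649628, minus) had a peak overlapping these bases in both libraries. Cxcl2 (chr5:90903649-90903898, plus) and Ccr1 (chr9:123968693-123968942, minus) had one in control only. Ccr9 (chr9:123766961-123767210, plus) and Cxcl12 (chr6:117168285-117168534, plus) had none in either. Capitals mark matches, on either strand, to core letters of transcription factor motifs. They were GGAAGT for the ETS family, TGTGGT for RUNX, AGATAA for GATA and TGANTCA for AP-1, where N is any base. The NF-kB motif was GGGA then any base then TTTCC, and the interferon response element (ISRE) was GAAA, any 2 bases and GAAA again. No 2 matches overlapped in these 7 sequences.
Cxcr4: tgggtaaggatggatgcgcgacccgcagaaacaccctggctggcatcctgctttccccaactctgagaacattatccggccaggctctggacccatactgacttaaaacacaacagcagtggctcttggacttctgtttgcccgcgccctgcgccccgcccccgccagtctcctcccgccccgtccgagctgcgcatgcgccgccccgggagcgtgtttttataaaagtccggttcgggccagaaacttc
Cxcl10: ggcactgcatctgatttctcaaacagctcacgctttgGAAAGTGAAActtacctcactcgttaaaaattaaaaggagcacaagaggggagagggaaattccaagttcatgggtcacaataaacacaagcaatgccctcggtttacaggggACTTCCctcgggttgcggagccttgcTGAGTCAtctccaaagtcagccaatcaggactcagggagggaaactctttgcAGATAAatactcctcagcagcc
Ccl3: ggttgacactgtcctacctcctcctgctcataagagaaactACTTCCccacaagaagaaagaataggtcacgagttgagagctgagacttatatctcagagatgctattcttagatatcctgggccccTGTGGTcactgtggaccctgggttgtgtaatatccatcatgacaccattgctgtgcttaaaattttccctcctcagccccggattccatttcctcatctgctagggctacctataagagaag
Cxcl2: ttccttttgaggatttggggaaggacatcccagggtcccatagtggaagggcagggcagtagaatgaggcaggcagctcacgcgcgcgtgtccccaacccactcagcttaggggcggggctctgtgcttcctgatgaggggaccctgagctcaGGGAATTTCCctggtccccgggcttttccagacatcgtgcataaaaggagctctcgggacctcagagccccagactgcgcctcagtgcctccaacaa
Ccr1: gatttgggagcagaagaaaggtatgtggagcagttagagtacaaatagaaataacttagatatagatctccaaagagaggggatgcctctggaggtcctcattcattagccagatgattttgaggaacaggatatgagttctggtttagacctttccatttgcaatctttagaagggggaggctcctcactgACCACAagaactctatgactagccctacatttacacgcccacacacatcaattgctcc
Ccr9: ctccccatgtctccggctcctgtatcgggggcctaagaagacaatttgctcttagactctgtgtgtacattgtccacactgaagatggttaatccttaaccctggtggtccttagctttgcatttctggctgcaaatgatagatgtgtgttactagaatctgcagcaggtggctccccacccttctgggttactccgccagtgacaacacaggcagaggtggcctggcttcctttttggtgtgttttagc
Cxcl12: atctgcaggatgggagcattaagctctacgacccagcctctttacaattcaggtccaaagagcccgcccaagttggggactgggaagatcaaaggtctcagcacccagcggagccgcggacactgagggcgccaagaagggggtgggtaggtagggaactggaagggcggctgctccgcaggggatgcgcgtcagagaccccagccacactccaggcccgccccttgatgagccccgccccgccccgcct

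A match is a description of the letters and not a binding site. The promoter table held 43 members, 28 ligands and 15 receptors, with 50 promoters. GGAAGT occurred in 32.4% of 34 ligand promoters and 37.5% of 16 receptor promoters, against 20.4% of 21263 protein-coding promoters. TGTGGT occurred in 11.8% of ligand and 37.5% of receptor promoters, against 12.4% of all. The NF-kB letters were found in 3 ligand promoters, those of the neutrophil chemokines Cxcl1, Cxcl2 and Cxcl3, and in the Ccr3 promoter, whereas 0.372% of all promoters held it. The duplicated Cxcl genes share ancestry, so those 3 matches are not independent. Median CpG count in the 250 bases was 4 for ligands and 3 for receptors, against 10 for all promoters. Over all genes it was 17 where both libraries had a gene-end peak, 12 where only control did and 4 where neither did. In the same order it was 3.5, 6 and 4 for ligands and 5, 1.5 and 3 for receptors, so these medians did not follow the order over all genes. They rest on 2 to 24 promoters each, and a gene-end peak need not lie over the promoter counted. Of the promoters grouped under both, those of Cxcr1, Xcr1 and the downstream start site of Ccl25 had no peak over the 250 bases in either library. The same held for Ccr1l1 and Ccl22, grouped under control only. The medians therefore do not show how CpG count relates to opening of the promoter itself. Cxcr4, with 19 CpGs, and Ccl25, with 45 at its upstream start site, were CpG-rich promoters that were open in both libraries. The Ccl25 site also lies at an end of Elavl1. Cxcl12 had 14 CpGs, Cxcl14 16 and Ccl21b 37, and none of them had a gene-end peak.

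**Figure D1:**
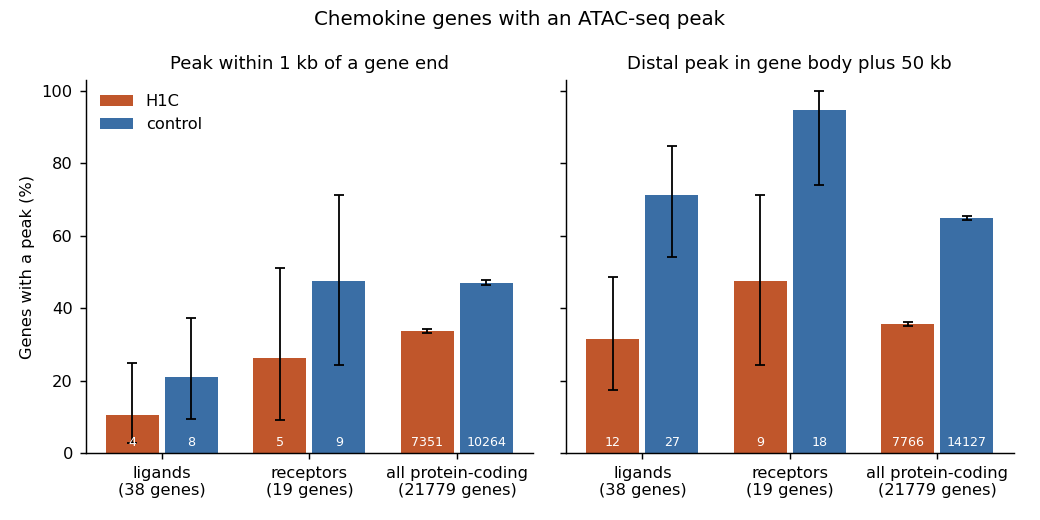
Percent of genes with a peak in H1C and control for ligands, receptors and all protein-coding genes. The left panel counts peaks within 1 kb of a gene end and the right panel distal peaks in the gene body plus 50 kb; bars are shares, lines are exact 95% intervals and white numbers are genes. Ligands sit below all genes at gene ends (10.5% in H1C and 21.1% in control), and receptors have distal peaks in 94.7% of genes in control.

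Gene ends of receptors were listed with a peak in fewer genes in H1C than in control, and every receptor with a gene-end peak in H1C also had one in control. A gene-end peak lay within 1000 bp of either annotated end. There were 5 of 19 receptors with such a peak in H1C (26.3%, exact 95% interval 9.15 to 51.2) and 9 of 19 in control (47.4%, 24.4 to 71.1). Over 21779 protein-coding genes the shares were 33.8% in H1C and 47.1% in control, so the receptors' control share lay near the background. That count takes either end of the gene. A peak overlapped the 250 bases before a start site at 1 of 15 receptors in H1C (6.67%) and 2 of 15 in control (13.3%). Over 17492 protein-coding genes these shares were 33.5% in H1C and 45.7% in control, so receptors lay lower by that measure. Cxcr4, Ccr7, Cxcr5, Cxcr1 and Xcr1 had a peak in both libraries (background 33.5%). There were 4 with one in control only (background 13.7%), among them Ccr1, Ccr1l1 and Ccr10, and 10 receptors had none in either (52.6%, the background also being 52.6%). No receptor was open in H1C only, which an exact interval limits to 17.6% (background 0.289%). The control list was also shortened to the length of the H1C list by -log10 p. Receptors with a gene-end peak then numbered 5 in H1C and 6 in control, and 3 had one in both. Shortening removes control peaks by construction, so it cannot show why the H1C count was lower.

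Cxcr4, the receptor for Cxcl12, had its start-site peak at 128592139 to 128592495 of chromosome 1 in H1C, with a pileup of 29 and a fold of 3.80, and at 128592127 to 128592761 in control, with a pileup of 53 and a fold of 5.16. Scaled by the background ratio of 1.10, the log2 ratio of H1C to control pileup was -1.01 (95% interval -1.72 to -0.33). The interval lay below 0 at that scaling, but with the ratio of local background at shared summits, 0.869, the log2 ratio was -0.67 (-1.37 to 0.01) and the interval included 0. The summits lay 28 bp (H1C) and 53 bp (control) before the start site. A second Cxcr4 peak inside the gene had pileups of 27 in H1C and 43 in control, with a log2 ratio of -0.81 (-1.56 to -0.09). With the local ratio that interval also included 0 (-0.47, -1.22 to 0.26). Both Cxcr4 peaks were thus listed in H1C, and a lower height beyond counting error held at the 1.10 scaling only.

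Ccr7, the receptor for Ccl19 and Ccl21, had a peak over its end at 99155077 of chromosome 11, with a pileup of 34 in H1C and 65 in control and a log2 ratio of -1.08 (-1.72 to -0.46). Xcr1, the receptor of cross-presenting dendritic cells, had a peak at the end opposite its start site, which also lies within 1000 bp of an end of Fyco1 and cannot be assigned to either gene. Its pileup was 39 in H1C and 74 in control, a log2 ratio of -1.07 (-1.66 to -0.49). Cxcr5, the receptor that brings B cells to follicles, had pileups of 28 in H1C and 35 in control, and Cxcr1, which binds neutrophil chemokines, had 24 in H1C and 27 in control. For these last 2 genes the intervals included 0 (-1.23 to 0.29 for Cxcr5 and -1.17 to 0.54 for Cxcr1). The Cxcr1 peak also lay at the far end of its gene. At Ccr7 and Xcr1 the interval stayed below 0 with the local ratio (-1.38 to -0.11 for Ccr7 and -1.32 to -0.14 for Xcr1).

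The control-only peaks at these 3 receptors had pileups of 26 to 37. Ccr1, a receptor of inflammatory Ccl chemokines, had a control peak from 123968409 to 123968850 of chromosome 9 with a summit 21 bp into the gene, a pileup of 36 and a fold of 6.47. Ccr1l1, its neighbour and paralog, had a control pileup of 26. Ccr10, the receptor for Ccl27 and Ccl28, had 37 at a peak that it shares with an end of Cntnap1. H1C listed no peak at these ends, where the lowest pileup of any H1C peak in the windows was 17. The H1C list therefore gives no height for them, and a lower peak that missed its threshold cannot be told apart from no opening.

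Gene ends of ligands were mostly without a peak. There were 4 of 38 ligands with one in H1C (10.5%, 2.94 to 24.8) and 8 of 38 in control (21.1%, 9.55 to 37.3), and 30 (78.9%) had none in either library. The intervals of both libraries lie below the shares over all genes given above. With lists of equal length the ligand counts turned to 4 in H1C and 3 in control. The share of control genes that also had a gene-end peak in H1C was 4 of 8 ligands (50.0%, 15.7 to 84.3) and 5 of 9 receptors (55.6%, 21.2 to 86.3), against 71.0% of all genes. Both intervals include that background.

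The ligands with a gene-end peak in both libraries were Ccl3, Ccl4, Cxcl10 and Ccl25. Ccl3 and Ccl4, inflammatory chemokines whose annotated bodies overlap, shared 1 peak. Its summits lay 167 bp (H1C) and 330 bp (control) before the Ccl3 start site, and it counts for Ccl4 by position alone. The pileups were 22 in H1C and 33 in control (log2 ratio -0.73, -1.58 to 0.09). Cxcl10, an interferon-induced ligand of Cxcr3, had 18 in H1C and 25 in control (-0.62, -1.58 to 0.32). These 2 intervals include 0. Ccl25, the thymic and gut ligand of Ccr9, had 33 in H1C and 73 in control, a log2 ratio of -1.29 (-1.93 to -0.68). That peak, at the upstream Ccl25 start site, also lies at an end of Elavl1, a gene for an RNA-binding protein. The downstream Ccl25 start site had no peak over the bases before it in either library. Xcl1, Ccl27a, Cxcl2 and Ccl22 had gene-end peaks in control only. Their pileups were 15 for Xcl1, the ligand of Xcr1, 15 for Ccl22, a ligand of Ccr4, and 26 for Cxcl2, a neutrophil chemokine. The skin chemokine Ccl27a had 2 control peaks with pileups of 27 and 23. Apart from Ccl25, no ligand gene-end peak exceeded a pileup of 22 in H1C or 33 in control.

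Distal peaks, those in a window and beyond 1000 bp of every protein-coding gene end, were found near a larger share of the receptors than of the ligands, a difference that was not tested. In H1C, 9 of 19 receptors (47.4%) and 12 of 38 ligands (31.6%, 17.5 to 48.7) had at least 1, against 35.7% of all genes. In control, 18 of 19 receptors (94.7%, 74.0 to 99.9) and 27 of 38 ligands (71.1%, 54.1 to 84.6) had at least 1, against 64.9% of all genes. The interval of the receptors in control lies above that background and that of the ligands includes it. Distal peaks were in both libraries for 9 receptors and 12 ligands (background 33.9%), in control only for 9 receptors and 15 ligands (31.0%), and in neither for 1 receptor and 11 ligands (33.4%). No member had them in H1C only (background 1.78%). A gene counted in both need not have the same peak in both. The distal peaks of Cxcl14, 1 in each library, did not overlap. Ccl22, Cx3cl1, Ccl17, Ccr4 and Cxcr5 also counted in both without a shared distal peak. Genes of a cluster share windows and peaks, so the intervals over genes are too narrow. With lists of equal length the counts were alike, 9 receptors in H1C and 9 in control, and 12 ligands in H1C and 13 in control.

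Per megabase of window, receptors had 14.5 peaks in H1C and 56.6 in control, and ligands had 10.1 in H1C and 26.4 in control. Density was not computed over all genes. The median count of peaks in the window of a protein-coding gene was 1 in H1C and 3 in control, the background for the counts per gene below. Windows of neighbouring genes overlap, and distal peaks near a member can belong to other genes. Of the distal peaks in member windows, 13 of 26 in H1C and 34 of 111 in control were nearer to an end of another gene than to a member.

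**Figure D2:**
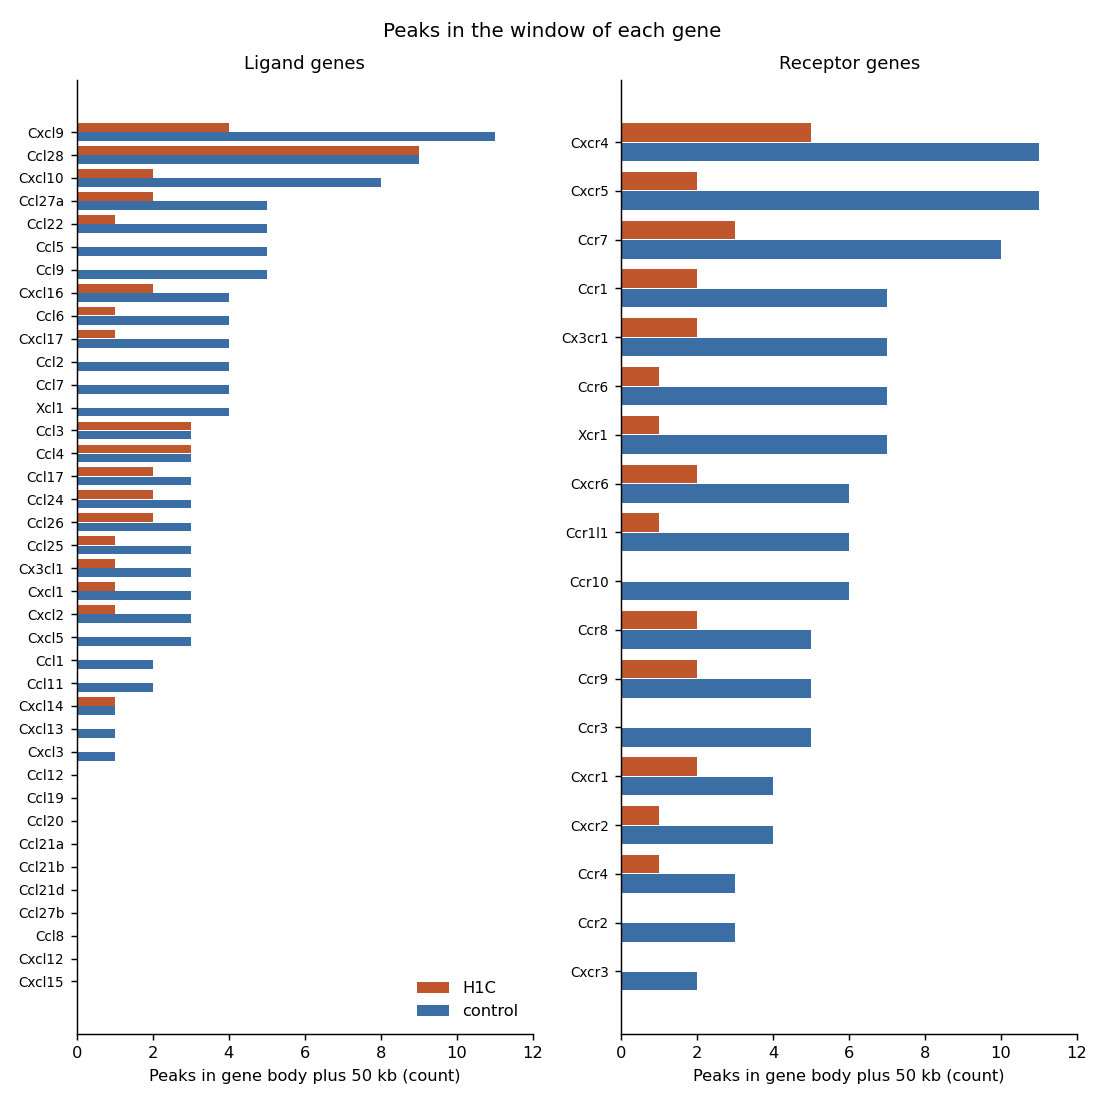
Number of peaks in the gene body plus 50 kb of each of 38 ligands (left) and 18 of the 19 receptors (right), in H1C (upper bar) and control (lower bar), ordered by control. Cxcr4 has 5 peaks in H1C and 11 in control, Ccl28 has 9 in each, and the 10 members without a bar in either library are all ligands.

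Among receptors, Cxcr4 had the most peaks in H1C, 5, against 11 in control, and all 5 H1C peaks were shared. No end of another protein-coding gene lay in its window. A shared distal peak 22683 bp before the start site had pileups of 32 in H1C and 51 in control (log2 ratio -0.81, -1.50 to -0.15). Another 15944 bp before it had 27 in H1C and 40 in control (-0.71, -1.47 to 0.03). The third, 43431 bp downstream of the start site, had 21 in H1C and 35 in control (-0.88, -1.73 to -0.06). All 5 shared Cxcr4 peaks had log2 ratios between -1.01 and -0.71, and their intervals overlapped, so start site and distal peaks were not distinguishable in ratio. With the local ratio all 5 intervals included 0. The other 6 distal control peaks had pileups of 16 to 31, each below the lowest control peak that was shared, 35.

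Ccr9 differed from Cxcr4 in that its start site had no peak in either library, and its window held 2 peaks in H1C and 5 in control. The highest by fold of all control-only distal peaks in the member windows lay 12619 bp before the Ccr9 start site, at 123754376 to 123754821 of chromosome 9, with a pileup of 53 and a fold of 9.85. A peak inside Ccr9, 8144 bp after the start site, had a pileup of 17 in H1C and 17 in control (-0.14, -1.20 to 0.92). The other H1C peak of the window was at an end of Lztfl1, 49544 bp away, with 43 in H1C and 67 in control. Cxcr6, the receptor for Cxcl16, and Xcr1 lie beside Ccr9, and the locus of the 3 genes held 3 peaks in H1C and 11 in control.

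Ccr7 had 3 peaks in H1C and 10 in control. Its shared distal peak, 13154 bp from the gene, had 40 in H1C and 53 in control (-0.55, -1.18 to 0.07). An H1C peak 39269 bp from Ccr7 did not overlap a control peak but lay beside one 38914 bp away. Cxcr5 had 2 peaks in H1C and 11 in control, and none of its 8 distal control peaks, of pileup 16 to 44, was shared. The highest by fold of all distal peaks found in H1C only lay 8004 bp from Cxcr5, with a pileup of 27 and a fold of 4.39, next to a control peak 6876 bp away. In these 2 windows a peak of H1C only therefore had a control neighbour. The H1C-only peak near Ccr4, 2914 bp from the gene with a pileup of 19, had none. The 3 control peaks of that window lay on the other side of Ccr4.

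Ccr6, the receptor for Ccl20, had 1 peak in H1C, at an end of Mpc1, and 7 in control, of which the 2 highest distal ones had pileups of 31 and 32. Cx3cr1, the receptor for Cx3cl1 on monocytes, had 2 in H1C and 7 in control, with a shared distal peak of 29 in H1C and 56 in control (-1.09, -1.79 to -0.42). Ccr1 had 2 in H1C and 7 in control, with shared distal peaks of 43 and 17 in H1C against 77 and 23 in control. Cxcr2, which moves neutrophils out of the marrow, had no gene-end peak. Its window held 1 peak in H1C, the one at the far end of Cxcr1, and 4 in control. Ccr2, Ccr3, Ccr10 and Cxcr3 had no peak in their windows in H1C and 2 to 6 in control. At least 1 peak lay in the windows of 14 of 19 receptors in H1C (73.7%, 48.8 to 90.9) and of all 19 in control (lower limit 82.4%). Over all protein-coding genes the shares were 67.1% in H1C and 78.6% in control, so the receptor share lay near the background in H1C and its interval lay above it in control.

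**Figure D3:**
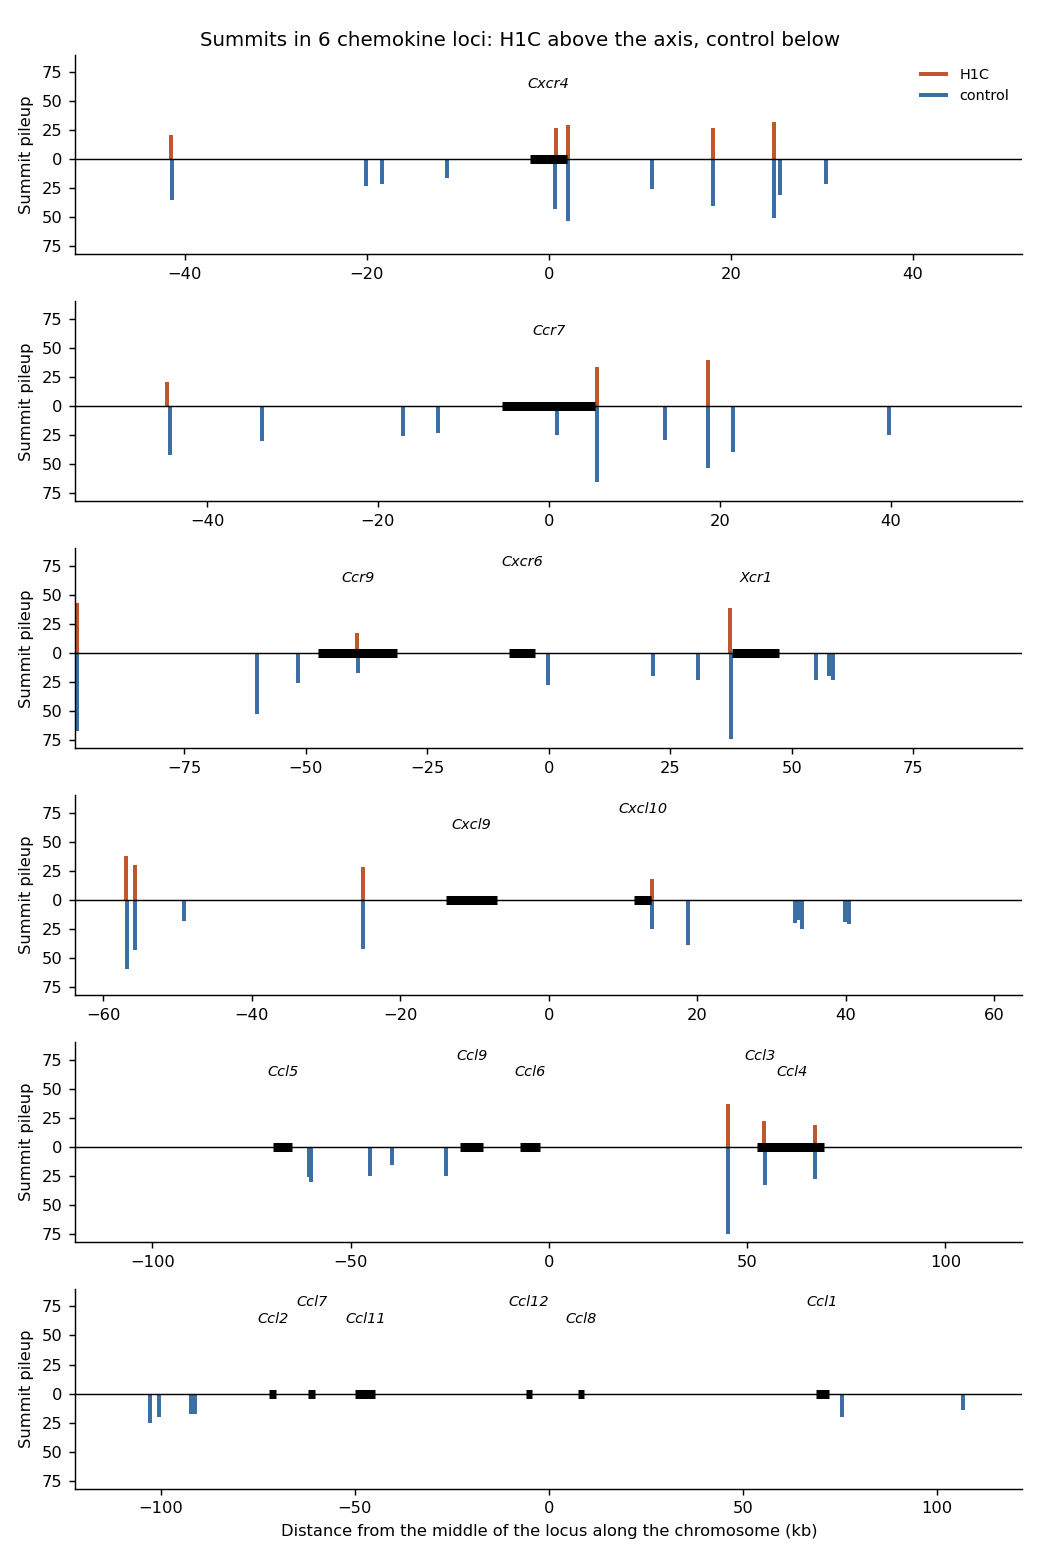
Summit pileup of every peak in 6 loci, with H1C drawn above the axis and control below it, against distance in kb from the middle of the locus along the chromosome; black bars are gene bodies. At Cxcr4 the 5 H1C peaks (21 to 32) stand over the 5 highest control peaks (35 to 53), and the Ccl2 to Ccl1 cluster has 6 low control peaks and none in H1C.

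Ligand loci were sparser. Any peak lay in the windows of 18 of 38 ligands in H1C (47.4%, 31.0 to 64.2, background 67.1%) and of 28 in control (73.7%, 56.9 to 86.6, background 78.6%). The H1C interval lies below its background and the control share is near its own. The 10 ligands without a peak in either library (26.3%, background 20.6%) were Ccl20, Ccl12, Ccl8, Ccl19, Ccl21a, Ccl21b, Ccl21d, Ccl27b, Cxcl15 and Cxcl12. Copies of Ccl19, Ccl21 and Ccl27 on chromosome 4 are near-identical, and the handling of reads with several matches is not given in the sources used here, so the absence of peaks there is uncertain. Cxcl12, the stromal ligand of Cxcr4, is a lone gene to which this does not apply. Its nearest peak summits were 263157 bp (H1C) and 263145 bp (control) from its start site.

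The cluster of monocyte and eosinophil chemokines on chromosome 11 (Ccl2, Ccl7, Ccl11, Ccl12, Ccl8 and Ccl1) had 0 peaks in H1C and 6 in control, all distal and of pileup 14 to 25. The neighbouring cluster of Ccl5, Ccl9, Ccl6, Ccl3 and Ccl4 had 3 peaks in H1C and 8 in control. All 3 of its H1C peaks lay at Ccl3 and Ccl4. Among them was a shared distal peak inside the annotated body of Ccl4, with 19 in H1C and 28 in control (-0.70, -1.62 to 0.19). A shared distal peak 7542 bp from Ccl3 had 37 in H1C and 75 in control, a log2 ratio of -1.16 (-1.77 to -0.57), and by fold in control, 8.62, it was the highest shared distal peak of the windows. The 5 distal control peaks near Ccl5, a T cell and platelet chemokine, and Ccl9, a ligand of Ccr1, had pileups of 16 to 30 and no H1C counterpart.

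The neutrophil chemokine cluster on chromosome 5 (Cxcl5, Cxcl3, Cxcl15, Cxcl1 and Cxcl2) had 1 peak in H1C and 6 in control. The H1C peak lay at an end of Mthfd2l. A control-only peak 17069 bp from Cxcl5 had a pileup of 41 and a fold of 8.42. The locus of the interferon-induced Cxcl9 and Cxcl10 had 4 peaks in H1C and 11 in control. Of its 8 distal control peaks 1 was shared, with 30 in H1C and 43 in control, and 6 near Cxcl10, of pileup 17 to 39, lay inside the body of Art3. A control-only peak 41555 bp from Ccl22 had a pileup of 56 and a fold of 7.56 but lay nearer to Pllp.

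Peaks inside neighbouring genes near Cxcl17 and Ccl26 had intervals below 0 under both scalings. The peak 4338 bp from Cxcl17, a mucosal chemokine, lay inside Lipe and had 34 in H1C and 63 in control (-1.03, -1.68 to -0.41). The peak 22959 bp from Ccl26, whose human namesake is an eotaxin, lay inside Hip1 and had 33 in H1C and 69 in control (-1.21, -1.85 to -0.59). Peaks of H1C only were found near Cx3cl1 (2630 bp from the gene, pileup 21), Cxcl14 and Ccl28.

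Ccl28, a mucosal ligand of Ccr10, had 9 peaks in H1C and 9 in control. Of its control peaks 5 lay inside Tmem267, 21733 to 26831 bp before the Ccl28 start site, where local background was at least 5 times the genome background, which is called high-copy here although copy number was not measured. Their pileups were 94, 72, 102, 68 and 111 in H1C against 100, 59, 102, 73 and 105 in control, with log2 ratios of -0.24 to 0.15 and every interval including 0. Another distal peak of the locus, 7381 bp before the start site, had 44 in H1C and 36 in control (0.15, -0.52 to 0.82). These peaks count among ligands by position alone.

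Of the control peaks in ligand windows, 24 of 73 (32.9%, 22.3 to 44.9) were shared with H1C, and in receptor windows 19 of 86 (22.1%, 13.9 to 32.3). Over all control peaks it was 34.1%. The order of ligands and receptors rested on which peaks were counted. Without peaks nearer to an end of another gene the shares were 4 of 40 (10.0%) for ligands and 12 of 52 (23.1%) for receptors. At the members' own gene ends 3 of 8 ligand peaks (37.5%, 8.52 to 75.5) and 6 of 10 receptor peaks (60%, 26.2 to 87.8) were shared, against 62.9% of all gene-end peaks. Of distal peaks 11 of 49 near ligands (22.4%, 11.8 to 36.6) and 8 of 62 near receptors (12.9%, 5.74 to 23.9) were shared, against 20.7% of all distal peaks. Without the high-copy peaks at Ccl28 the ligand share was 6 of 44 (13.6%, 5.17 to 27.4). Over all classes the receptor interval lay below the background of 34.1%. Distal peaks made up 62 of the 86 receptor peaks and 21696 of all 31843, and a part of this mix in the receptor share was not tested. Counting ends of any gene, 13 of 24 gene-end peaks in ligand windows (54.2%, 32.8 to 74.4) and 11 of 24 in receptor windows (45.8%, 25.6 to 67.2) were shared. The receptor share lay below its background in both the gene-end and the distal class. Within these classes every interval given here includes its background. Of the H1C peaks 24 of 28 near ligands (85.7%) and 19 of 22 near receptors (86.4%) overlapped a control peak, against 85.0% of all.

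**Figure D4:**
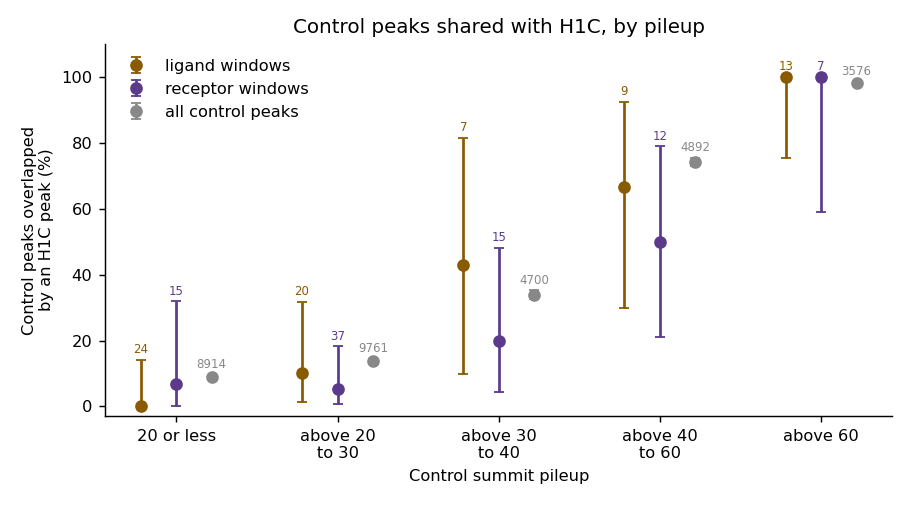
Percent of control peaks overlapped by an H1C peak in 5 ranges of control summit pileup, for ligand windows, receptor windows and all control peaks; lines are exact 95% intervals and numbers are control peaks. The share is 0 of 24 for ligand peaks of pileup 20 or less and 13 of 13 above 60, and it climbs in the same way over all peaks.

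Height in control set apart the shared peaks. Near ligands the median control pileup was 64.5 for shared and 21 for unshared peaks, and near receptors it was 53 for shared and 26 for unshared, against 50 and 22 over all peaks. Above a pileup of 60 all 13 ligand and all 7 receptor peaks were shared (98.3% of all). From above 20 to 30, 2 of 20 ligand peaks and 2 of 37 receptor peaks were (13.7% of all), and at 20 or less 0 of 24 ligand peaks, which allows up to 14.2%, and 1 of 15 receptor peaks were (8.94% of all). Receptor windows had 52 of 86 control peaks at a pileup of 30 or less, near the share over all control peaks. Of all 31843, 8914 had a pileup of 20 or less and 9761 one from above 20 to 30.

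**Figure D5:**
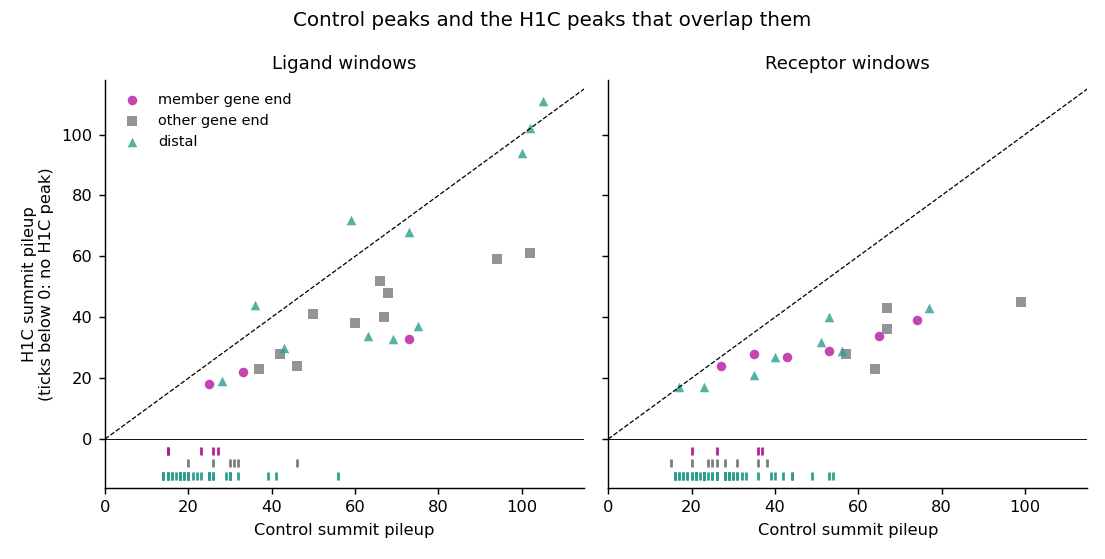
Summit pileup in H1C (vertical axis) against control (horizontal axis) for control peaks in ligand (left) and receptor (right) windows; points are shared peaks by class, ticks below 0 are control peaks with no H1C peak, and the dashed line marks equal pileups before scaling. Receptor points lie on or below the line (17 to 45 in H1C), and the ligand points on or above it are distal peaks at Ccl28.

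At shared peaks pileup was lower in H1C. The median log2 ratio of H1C to control was -0.71 near ligands (quartiles -0.88 and -0.38, 24 peaks) and -0.88 near receptors (-1.07 and -0.64, 19 peaks), against -0.79 over 10874 shared peaks (-1.01 and -0.51). The ratio was below 0 at 22 of 24 ligand peaks and 19 of 19 receptor peaks. At the 1.10 scaling its interval lay below 0 at 12 ligand and 13 receptor peaks, against 62.0% of all shared peaks, and above 0 at 0 of either, against 0.0184%. Without high-copy peaks the ligand median was -0.80 over 19 peaks. These values depend on the scaling. With the ratio of local background at shared summits, 0.869, in place of 1.10, the medians were -0.37 for ligands and -0.53 for receptors. The interval then lay below 0 at 5 of 24 ligand and 8 of 19 receptor peaks, against 27.8% of all shared peaks, and above 0 at 0 of either, against 0.635%. In a bulk library, fewer cells with an open site and less opening per cell cannot be told apart.

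The other columns of the lists describe each library and are the authors' own values per peak. Median fold near ligands was 4.13 in H1C and 3.99 in control, and near receptors 4.15 in H1C and 4.25 in control, against 4.31 and 4.41 over all peaks of H1C and control. Median -log10 p was 14.2 in H1C and 10.5 in control near ligands and 11.1 in H1C and 11.3 in control near receptors. Median -log10 q was 10.7 in H1C and 7.66 in control near ligands and 7.71 in H1C and 8.45 in control near receptors. The high ligand values in H1C stand over 28 peaks that include 6 of high copy. Summits lay a median of 174 bp (H1C) and 167 bp (control) from the peak start near ligands and 166 bp (H1C) and 152 bp (control) near receptors. Shared peaks were narrower in H1C at 20 of 24 ligand and 18 of 19 receptor peaks (9467 of 10874 over all), with median widths near receptors of 357 bp in H1C and 511 bp in control. Summits of the 2 libraries lay a median of 25 bp apart near ligands and 42 bp near receptors, against 31 bp over all.

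Genes that carry or limit the signal of chemokine receptors were also counted, as a list of 56 genes for G proteins, kinases, arrestins, regulators, Rac activators and atypical receptors. There were 35 with a gene-end peak in H1C (background 33.8%) and 44 in control (47.1%), set beside 9 and 17 of the 57 placed members in H1C and control. Of the 56, 34 had it in both (background 33.5%), 10 in control only (13.7%) and 1, the receptor kinase Grk2, in H1C only (0.289%). The receptor kinase gene Grk5 had a pileup of 40 in H1C and 60 in control, the Gi subunit gene Gnai3 23 in H1C and 64 in control, and the small GTPase gene Rhoa 53 in H1C and 96 in control. In control only were Rgs1, an inhibitor of G protein signalling (pileup 27), the PI3 kinase gene Pik3cg (34), Dpp4, a protease that cleaves Cxcl12 (23), and Akt1 (46). The atypical receptors, named for their role, bind chemokines without G protein signalling. Ackr3, which binds Cxcl12, and Ccrl2 had low gene-end peaks in control only, with pileups of 20 and 22, and Ackr1, Ackr2 and Ackr4 had none in either.

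Ligands and the receptors they are known to bind can be set side by side. Cxcr4 was open at its start site in both libraries, whereas Cxcl12 had no peak in its window. Ccr7 and Cxcr5 were open at a gene end in both, whereas their ligand genes Ccl19 and Cxcl13 had no gene-end peak in either. The reverse held for Ccl25 and Ccr9 and for Cxcl10 and Cxcr3, with a gene-end peak at the ligand in both libraries and at the receptor in neither. Xcl1 was open at a gene end in control only and Xcr1 in both. The Ccl25 peak also lies at an end of Elavl1 and the Xcr1 peak at an end of Fyco1, and the absence of peaks at Ccl19 is uncertain, as given above. Other pairs had the same status at gene ends. For example, Ccr10 and Ccl27a had a peak in control only, the Ccr10 peak being shared with Cntnap1, and Cxcr6 and Cxcl16 had none in either. All these pairs were picked for their known binding after the values were seen, and no test was made on them.

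The labelled cell type was checked against marker genes. Of 10 stem cell markers, 0 had a gene-end peak in H1C and 5 had one in control, among them Kit (pileup 24), Meis1 (24), Ly6a (28) and Hlf (20), and 6 in H1C and 8 in control had a distal peak. Over all protein-coding genes 33.8% in H1C and 47.1% in control had a gene-end peak, and 35.7% in H1C and 64.9% in control a distal one. The stem cell markers' control share at gene ends was thus near the background. Gata2 had no peak in either library. Cd48, absent from the sorted cells as protein, had a gene-end peak in control only (23). Gene-end peaks were found at 1 of 11 myeloid markers in H1C and 4 in control, at 2 of 10 lymphoid markers in H1C and 6 in control, at 0 of 7 erythroid and megakaryocyte markers in H1C and 1 in control, at 1 of 4 dendritic markers in H1C and 2 in control, at 0 of 4 mast and basophil markers in H1C and 1 in control, and at 0 of 7 stromal and endothelial markers in H1C and 2 in control. The same backgrounds, 33.8% in H1C and 47.1% in control, apply to these small lists. Open chromatin does not measure expression, and the part of other cell types in the chemokine peaks was not tested.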

How the data were processed

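ATAC-seq peaks of 2 libraries, 1 for H1C and 1 for control, were used as the authors deposited them, called per library. The submitters' processing notes name MACS2, Picard, featureCounts, Bowtie2 2.2.9 and Trim Galore 0.4.4, with reads placed on mm10. The sources used here give no settings, duplicate removal or shift of reads to the cut site, and these would alter pileups and summit positions. The deposited fold is a ratio, (pileup + 1) over (local background + 1), within 1 library. Deposited significance is given as -log10 p and -log10 q from the authors' caller, with minimum -log10 q of 1.34 in H1C and 1.31 in control. The deposited score was -log10 q times 10, cut to whole numbers, in 99.96% of H1C and 99.97% of control peaks and was not used further.

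Pileup and local background were solved from the fold and the Poisson p. Solutions with a whole pileup (relative tolerance 0.0001) were found for 13155 of 13156 H1C and 32005 of 32005 control peaks. The solver was tested on simulated data. The minimum local background in each library, its genome background, stood for depth, since read totals were not used here. Pileup ratios were scaled by the genome background of each library. The 95% intervals are exact, Clopper-Pearson for shares and conditional binomial for ratios. They cover counting error only, and amplified fragments are not independent molecules. Peaks on chromosomes 1 to 19, X and Y were used, 13012 in H1C and 31843 in control. Genes and promoters came from RefSeq tables of GRCm38.p6, the same build.

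The members, lists and rules were chosen with earlier results of these data known. The text names members with a gene-end peak, Cxcr4, Ccr9, Cxcl12 and Cxcr2, the 5 ligands and 5 receptors with most distal control peaks (ties included), and members nearest to the top distal peaks by fold (5 control-only, 5 shared, 3 H1C-only). Some others are named as neighbours, binding partners or genes without a peak, and not every member is named. Pathway and marker genes are named by control fold, up to 4 of each status. Some genes that these rules name are not reported here. Leaving out high-copy peaks, and peaks nearer to another gene's end, was chosen after the data had been seen. Scripts ran in Python 3.11.15 with scipy 1.17.1, numpy 2.4.6, pandas 2.3.3 and, for figures, matplotlib 3.10.9.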

Additional observations from a re-analysis of the deposited data

How the results depend on the processing

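Of 80 alternatives over 10 results, 65 stayed within 1.5 times, within the interval or within the quartiles of the value reported. For the others the cause was not tested unless the setting itself gives it. Shortening the control list to the length of the H1C list, by -log10 p, leaves fewer control peaks by construction. The ratio of H1C to control peaks then turned to above 1 near ligands, 1.04 (0.384 as reported), and was 0.71 near receptors (0.256), the share of control peaks that overlapped an H1C peak was 70.4% near ligands (32.9%) and 48.4% near receptors (22.1%), and receptors with a gene-end peak in both libraries numbered 3 (5 as reported). Ligands with a gene-end peak numbered 4 in H1C and 3 in control, an order opposite to that reported. Ligands with a distal peak in both, 12 as reported, numbered 7 with gene ends of 2500 bp, 5 with flanks of 20 kb, 20 with flanks of 100 kb and 6 without peaks nearer to another gene. That last setting also gave a peak ratio of 0.15 and a share of 10% near ligands. Receptors with a distal peak in both, 9 as reported, numbered 5 at a -log10 q of at least 5 and 5 with flanks of 20 kb. With the ratio of local backgrounds the median log2 pileup ratio was -0.37 near ligands and -0.53 near receptors. No paired analysis was possible because there was 1 library a group. Peaks near the threshold limit what can be said of low sites, since a site listed in 1 library only may lie just below the threshold of the other.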

Other observations

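Family pseudogenes, which the rule leaves out, were counted in their bodies plus 1000 bp on either side. Ccl16-ps had 0 peaks in H1C and 1 in control, the distal peak 3528 bp from Ccl9 described above by position. The other 4, among them Cxcl11 beside Cxcl10, had 0 in either library. Ccl19-ps3 lies before the first peak position of its chromosome, so its count of 0 gives no information.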
